A study of Mus musculus with 189 samples.

Results

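The genes described here are 58 genes of the endoplasmic reticulum (ER) that fold, modify and export secreted and membrane proteins. They were chosen by name for their known roles, from chaperones and protein disulfide isomerases to the translocon, the glycosylation machinery and the coat that carries cargo out. All 58 had a row among the 46078 genes counted, and 57 reached 5 CPM (gene reads divided by the total and scaled up) in at least one group of cells, a level that 10556 of all genes reached. The cells were mature mast cells and basophil-mast cell progenitors (BMCPs), 94 and 95 single cells taken from the peritoneal cavity of 4 female mice of the C57BL/6 strain. No treatment or altered allele is given for either group, and ages are not given. The sort took live cells that lacked lineage markers and carried both c-Kit and FcεRI, the IgE receptor. Its gate for mature mast cells was integrin β7 low with high side scatter, a measure of granularity, and its gate for BMCPs was the reverse. The series concerns the late steps of mast cell differentiation, so the comparison asks how the ER machinery stands in the progenitor and in the granule-filled cell.

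Proteins bound for the cell surface, the granules or the outside enter the ER through the Sec61 channel while they are being made. In the ER lumen they lose their signal peptide, receive N-linked sugars, are folded by chaperones and joined by disulfide bonds, and leave in COPII vesicles for the Golgi. Mast cells store large amounts of proteases in secretory granules, and every one of these proteases takes this route. When unfolded proteins accumulate, the sensors encoded by Ern1, Eif2ak3 and Atf6 start the unfolded protein response, which acts through the transcription factors Xbp1, Atf4 and Atf6 and raises many of the genes described here.

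The promoters of several of these genes carry a known element of that response, the ER stress element (ERSE), which reads CCAAT, any 9 bases and CCACG. It was searched on both strands in the 250 bases before the RefSeq start of each gene. RefSeq promoters (GRCm38.p6) matched 47 of the 58 genes, with Ero1l and Ero1lb found under the symbols Ero1a and Ero1b. The element was present in 9 of the 47 (19.1%), Hspa5, Hsp90b1, Calr, Canx, Dnajc3, Creld2, Pdia6, Ero1lb and Syvn1, and in 0.130% of the 27025 genes with a promoter. The genes were chosen partly as known targets of this response, so the share is a description. The windows of 5 chaperone and folding genes are shown, 5′ to 3′ on the strand of the gene, with the element or its reverse complement in capitals. They are chr2:34772025-34772043 for Hspa5, chr10:86705513-86705676 for Hsp90b1, chr8:84847055-84847113 for Calr, chr11:50325780-50325838 for Canx and chr12:17266471-17266529 for Pdia6.
Hspa5: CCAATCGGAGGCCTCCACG
Hsp90b1: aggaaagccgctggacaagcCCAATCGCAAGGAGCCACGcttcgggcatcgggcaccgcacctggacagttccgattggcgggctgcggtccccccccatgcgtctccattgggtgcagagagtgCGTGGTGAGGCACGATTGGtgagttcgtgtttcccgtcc
Calr: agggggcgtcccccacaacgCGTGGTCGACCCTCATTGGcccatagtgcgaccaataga
Canx: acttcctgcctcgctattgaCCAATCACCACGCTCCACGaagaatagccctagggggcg
Pdia6: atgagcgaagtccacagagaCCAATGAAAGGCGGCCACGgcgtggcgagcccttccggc
Hsp90b1 had the element once on each strand. For Hspa5 only the element itself is shown, because its window reached an exon annotated by GENCODE.

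A second form, ERSE-II, which reads ATTGG, any base and CCACG, was found in Herpud1 and in no other of the 47 genes, and in 0.0370% of all promoters. Herpud1, which helps to remove misfolded proteins from the ER, also held TTGCATCA, a form of the composite site bound by C/EBP and ATF proteins, present in 0.918% of promoters. The UPR element TGACGTGG was found in Sec24d alone of the 47 and in 0.603% of promoters. The Herpud1 window, chr8:94386357-94386407, is given because it holds the ERSE-II element, shown in capitals.
Herpud1: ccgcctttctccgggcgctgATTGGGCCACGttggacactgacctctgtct
These matches are letters in a window and were not tested as binding sites.

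After 2 BMCPs with 3978 and 36972 gene reads were left out, 94 mature mast cells and 93 BMCPs remained, with 118831096 and 119524686 gene reads. A cell held between 344022 and 2152221 reads. Which mouse a cell came from is not labelled. Each group was therefore 1 pooled sample without replicates, and no test between the groups could be made. Intervals of 95% (exact Poisson for CPM, exact Clopper-Pearson for shares) cover counting error only, not the spread between cells or mice. PCR copies were counted as reads, so intervals from read counts are too narrow even for that error. Group ratios are log2((mature CPM + 1)/(BMCP CPM + 1)) minus the median over the 10556 genes, called relative log2 below. That median was -0.25 with gene totals, 0.00 with TMM factors and 0.68 with ERCC spike-in totals. Without BMCP cell 55, which held 38126 of the 277923 ERCC reads of the BMCPs, the value with ERCC totals was 0.47. A gene at a relative value of 0 thus had fewer CPM but more reads per spike-in read in mature mast cells. Without this centring, 33 of the 57 genes were above 0 with gene totals, 43 with TMM and 56 with ERCC totals. As a check of the labels, granule genes (Cma1, Tpsb2, Cpa3 and 7 others) took 28.5% of mature and 17.6% of BMCP reads, and at least 14.3% in every mature mast cell. B cell and plasma cell genes took 0.0257% and 0.206% of reads, and in BMCP cells 46 and 80 they took 8.06% and 7.17%, with granule genes at 0.113% and 0.156%. Median reads per ERCC read were 939 in mature mast cells against 562 in BMCPs, and median genes detected in 100000 reads were 2897 and 2466.

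Together the 58 genes took nearly the same share of reads in both groups. They held 0.911% of gene reads in mature mast cells (interval 0.909 to 0.913) and 0.870% in BMCPs (interval 0.869 to 0.872). Single cells ranged from 0.471% to 1.65% with a median of 0.914% in mature mast cells, and from 0.409% to 1.82% with a median of 0.836% in BMCPs. The ranges overlapped almost completely. Relative to all genes the summed level was 0.32 (log2) higher in mature mast cells. The median relative log2 of the 57 genes was also 0.32, with quartiles of 0.06 and 0.61, against quartiles of -0.54 and 0.53 over all genes. In cell numbers up to 47 (48 for BMCPs) and in those above, which may or may not be the 2 plates, the median was 0.30 and 0.29.

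Of the 57 genes, 44 lay above the all-gene median and 13 below. At least 1.5-fold from that median, 18 were higher in mature mast cells, where 23.2% of all genes were, and 1 was higher in BMCPs, where 23.8% were. At least 2-fold, 4 were higher in mature mast cells against 13.4% of all genes, and 0 in BMCPs against 14.4%. The remaining 38 genes lay within 1.5-fold. As shares of the list, 31.6% were higher in mature mast cells at 1.5-fold, above the background, and 7.02% at 2-fold, below it, while the 1.75% higher in BMCPs was far below. Of the 45 genes that reached 50 CPM, 12 were at least 1.5-fold higher in mature mast cells (background 15.6%) and 0 in BMCPs (background 19.3%), and at 2-fold 1 and 0 were (background 6.74% and 8.97%). Between the blocks of cell numbers, 22 of the 57 genes lay on opposite sides of the all-gene median, as did 42.98% of all genes, while 31 were above it in both and 4 below it in both (29.7% and 27.4% of all genes). The 18 genes, chosen on the same cells pooled, were above the median in both blocks, and 7 of them were at least 1.5-fold higher in both: Calr, Sdf2l1, Hyou1, Eif2ak3, Sel1l, Ssr3 and Tmed2. Hyou1 and Eif2ak3, also among the 4 genes at 2-fold, passed 5 CPM in mature mast cells alone. Ern1, the 1 gene higher in BMCPs, passed in BMCPs alone. These 3 genes had to differ to be included. Without BMCP cells 46 and 80, 5 of the 18 came below 1.5-fold: Canx, Pdia4, Ssr1, Sar1b and Lman1. Hspa5 alone came above it, at 0.61. The share of the list then lay close to the background, 23.2% of all genes without these 2 cells.

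**Figure D1:**
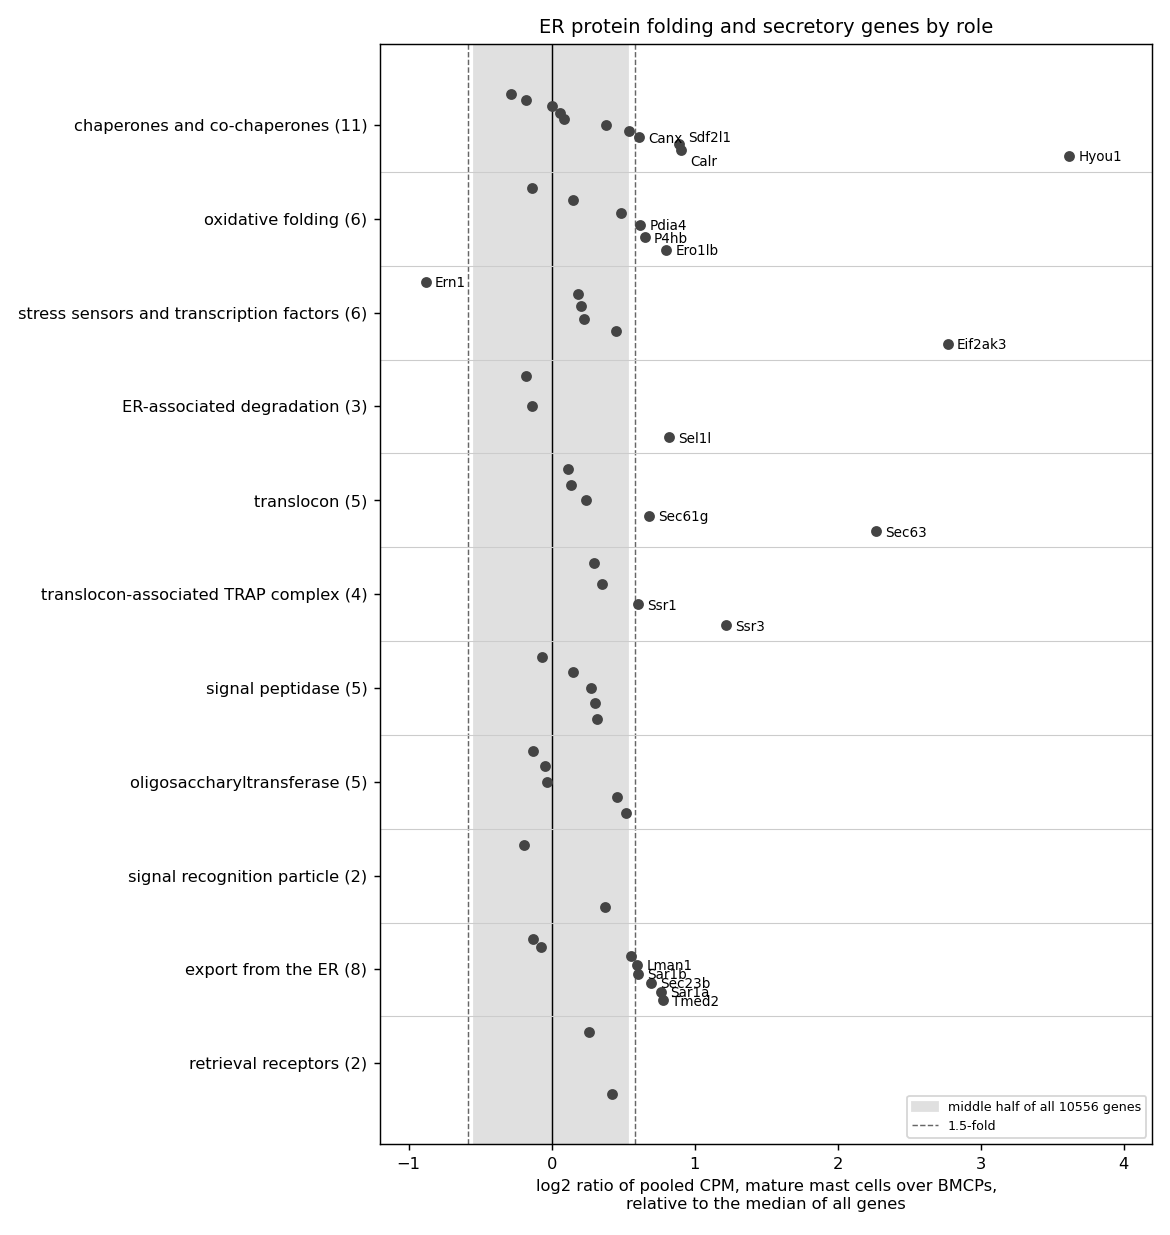
Relative log2 ratio of each of the 57 genes, by role, with mature mast cells over BMCPs on the horizontal axis and the all-gene median at 0. Hyou1, Eif2ak3 and Sec63 stand to the right at 3.62, 2.77 and 2.26 and Ern1 to the left at -0.88, and the other points lie between -0.29 and 1.22. Grey marks the quartiles of all genes and dashed lines mark 1.5-fold.

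Among the 11 chaperones and co-chaperones, 9 were above the all-gene median, 4 at least 1.5-fold, with a median of 0.38. Calr (ENSMUSG00000003814; chr8:84841850-84846934) encodes calreticulin, the lectin chaperone that holds calcium and glycoproteins in the lumen. Calr CPM in single mature mast cells ran from 0 over a median of 404 to 1924, and in BMCPs from 0 over a median of 238 to 2329. The ranges overlapped, with pooled levels of 512 CPM (508 to 516) and 325 CPM (321 to 328), a relative log2 of 0.91 or 1.87-fold. After thinning to 100000 reads, 84 of 94 mature mast cells and 61 of 93 BMCPs had a Calr read. Its ERSE is printed above, and it is the ERSE gene with the highest ratio.

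Canx, the membrane-bound lectin partner of calreticulin, had 269 CPM and 209 CPM, a relative log2 of 0.61 with a median of 206 CPM per mature mast cell and 26.7 CPM per BMCP. Sdf2l1, a co-chaperone of the BiP cycle, had 69.1 CPM and 44.1 CPM (0.89), and the median cell of both groups had 0 reads of it. Hspa5, which encodes BiP, the main ER chaperone of the Hsp70 family, lay just within 1.5-fold. Hspa5 cells ran from 0 over a median of 259.9 CPM to 1356 CPM in mature mast cells and from 0 over a median of 1.38 CPM to 1574 CPM in BMCPs. Its pooled levels were 280 CPM and 229 CPM, a relative log2 of 0.54. The cell medians stood far apart, with a thinned read in 65 of 94 mature mast cells and 45 of 93 BMCPs, whereas cells with a read had a median of 374 CPM in mature mast cells against 395 CPM in BMCPs.

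Hsp90b1 (GRP94, the ER member of the Hsp90 family) had a relative log2 of 0.09 with 245 CPM and 275 CPM. Dnajc3, a co-chaperone that also restrains the kinase PERK, lay lowest of the group at -0.29, with 61.8 CPM and 90.1 CPM. Hyou1, a nucleotide exchange factor for BiP, gave the largest ratio of all 57 genes at 3.62, from 16.9 CPM and 0.728 CPM. It rested on few wells: BMCP cell 23 held 97.7% of the BMCP reads and mature cell 23 held 36.3% of the mature reads. A thinned read of it was found in 9 mature mast cells and in 1 BMCP. Hyou1 passed 5 CPM in mature mast cells alone and so had to differ to be included, as did Eif2ak3, and Ern1 passed in BMCPs alone. Dnajb9, Manf and Creld2 had ratios of 0.06, 0.00 and -0.18, and each changed sign between the lower and higher block of cell numbers. The block values were 1.14 and -0.50 for Dnajb9, 0.25 and -0.29 for Manf, and -0.91 and 0.29 for Creld2.

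The 9 ERSE genes did not share a direction. Their relative log2 ran from -0.29 for Dnajc3 to 0.91 for Calr with a median of 0.15, and the median of the 37 matched genes without the element was 0.30.

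The 6 enzymes of oxidative folding, which form and rearrange disulfide bonds, had a median of 0.55, and 3 were at least 1.5-fold higher in mature mast cells. P4hb, protein disulfide isomerase, had cells from 0 over a median of 336 CPM to 1492 CPM in mature mast cells and from 0 over a median of 78.9 CPM to 1809 CPM in BMCPs. The pooled levels were 367 CPM and 278 CPM, a relative log2 of 0.65. The overlap between groups was wide, and 74 mature mast cells and 49 BMCPs had a thinned read. Pdia3, the isomerase that works with calnexin and calreticulin on glycoproteins, had the highest CPM of the 57 genes in both groups, 559 CPM and 476 CPM, and a relative log2 of 0.48. Pdia4 had 167 CPM and 129 CPM (0.62), with values of 0.06 and 0.96 in the lower and higher block of cell numbers. Pdia6 had 222 CPM and 239 CPM (0.15).

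Ero1l and Ero1lb encode the oxidases that recharge the isomerases. Ero1l had 20.5 CPM and 27.1 CPM, a relative log2 of -0.14. Ero1lb had 8.53 CPM and 5.51 CPM (0.80), and this value was 0.40 without mature cell 84 and 1.69 without BMCP cell 95. Both were read in at most 15 cells of a group after thinning, so their ratios describe a few wells.

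Xbp1 and Ddit3, the transcription factor genes of the unfolded protein response with the most reads, lay near the all-gene median in both blocks of cell numbers, whereas Atf4 and Atf6 changed sign between them. Xbp1, the factor made active by splicing through IRE1, had 187 CPM (185 to 190) in the mature and 196 CPM (193 to 198) in the progenitor pool, a relative log2 of 0.19 (0.17 in both blocks). Single cells ran from 0 to 1399 CPM and from 0 to 1151 CPM, with medians of 45.8 CPM and 0.838 CPM. Atf4, the factor translated when eIF2 is phosphorylated, had 108 CPM and 110 CPM (0.22), from 1.44 in the lower and -0.54 in the higher block of cell numbers. Ddit3, which encodes CHOP, a factor downstream of Atf4, had 179 CPM and 185 CPM (0.20, with 0.30 and 0.12 in the blocks). BMCP cell 77 held 25.2% of the BMCP reads of Ddit3, and leaving that cell out gave 0.60. Atf6, the membrane-bound factor cleaved in the Golgi, had 25.3 CPM and 21.9 CPM (0.45), from 1.65 and -0.35 in the blocks. Spliced and unspliced forms of Xbp1 cannot be told apart in counts per gene.

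Ern1 and Eif2ak3, the genes of the kinases IRE1 and PERK, had few reads. Ern1 had 1.91 CPM (1.67 to 2.18) in mature mast cells against 5.37 CPM (4.96 to 5.80) in BMCPs, a relative log2 of -0.88, the lowest of the 57 genes. BMCP cell 54 held 82.9% of these BMCP reads, and without this cell the value was 0.84, the opposite direction. Eif2ak3 had 9.24 CPM and 0.786 CPM (2.77), with 32.4% of the mature reads in mature cell 87 and 74.5% of the BMCP reads in BMCP cell 8. Ern1 was read after thinning in 4 mature mast cells and 3 BMCPs and Eif2ak3 in 6 and 2, too few for a statement about the groups.

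In ER-associated degradation, which sends misfolded proteins back to the cytosol, Sel1l stood at 0.82, with 116 CPM and 77.9 CPM. It encodes the adaptor of the ubiquitin ligase Syvn1. The Sel1l value was 0.60 without mature cell 7 and 1.07 without BMCP cell 26. Its cell medians were 0.895 CPM and 0.750 CPM, and 32 mature mast cells and 34 BMCPs had a thinned read. Syvn1 itself had 90.04 CPM and 118 CPM, a relative log2 of -0.13. Herpud1 had a pooled 285 CPM (282 to 289) in mature mast cells against 385 CPM (381 to 388) in BMCPs, a relative log2 of -0.18. Single cells ran from 0 over a median of 270 CPM to 1625 CPM and from 0 over a median of 244 CPM to 2079 CPM. These distributions overlapped, and Herpud1, with the ERSE-II element printed above, was among the genes highest per kilobase, at 122 CPM per kb and 165 CPM per kb.

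The 5 translocon genes all lay above the all-gene median, and 2 at least 1.5-fold. Sec61a1, the channel itself, had 301 CPM and 327 CPM, a relative log2 of 0.13. BMCP cell 40, with 8.17% mitochondrial reads and reads of 3 of the 58 genes after thinning, had 5482 CPM of it, and the value was 0.28 without that cell. The small subunits Sec61b and Sec61g stood at 0.24 and 0.68, the latter from 8.01 CPM and 5.68 CPM. Sec62 and Sec63 assist the channel with substrates that arrive after translation. Sec62 had 94.1 CPM and 104 CPM (0.11). Sec63 had 26.7 CPM and 5.86 CPM (2.26), with values of 0.12 and 3.33 in the lower and higher block of cell numbers, and 1.78 without mature cell 93. Sec63 was read after thinning in 13 mature mast cells and 6 BMCPs.

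The TRAP complex sits beside the channel and helps substrates into it. All 4 of its genes were above the all-gene median. Ssr3 stood out among genes with many reads. Its cells ran from 0 over a median of 59.8 CPM to 706 CPM in mature mast cells and from 0 over a median of 0 to 782 CPM in BMCPs. The pooled levels were 135 CPM (133 to 137) and 68.7 CPM (67.2 to 70.2), a relative log2 of 1.22 or 2.33-fold. It was 1.27 and 1.17 in the lower and higher block of cell numbers, and 59 mature mast cells and 28 BMCPs had a thinned read. Ssr1 had 198 CPM and 154 CPM (0.61), Ssr2 226 CPM and 211 CPM (0.35) and Ssr4 179 CPM and 173 CPM (0.30). Ssr3 was thus the one TRAP gene at least 2-fold from the median.

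The 5 signal peptidase genes and the 5 oligosaccharyltransferase genes held no gene past 1.5-fold in the pooled cells. The blocks of cell numbers differed more: Spcs3 stood at -0.43 in the lower and 1.56 in the higher block, Sec11c at 0.91 and -0.31, Ostc at 0.82 and 0.22 and Ddost at 0.32 and 0.64. Spcs1, Rpn1 and Rpn2 also changed sign between the blocks. Signal peptidase, which cuts off the signal sequence, had a median of 0.27. Spcs1 had 132 CPM and 141 CPM, a relative log2 of 0.15, and 85.1 CPM per kb and 91.2 CPM per kb. Spcs2 stood at -0.07, and the 3 other genes between 0.27 and 0.32. Oligosaccharyltransferase, which attaches N-linked sugars, had a median of -0.03. Ddost, its subunit with the highest level per kilobase of all 57 genes in mature mast cells at 190 CPM per kb (165 in BMCPs), had 404 CPM and 350 CPM, a relative log2 of 0.46. Rpn1, Rpn2 and Dad1 lay between -0.13 and -0.03, and Ostc at 0.52.

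In the signal recognition particle, which brings ribosomes to the ER, Srp14 had 176 CPM and 241 CPM, a relative log2 of -0.20, and the highest level per kilobase in BMCPs at 201 CPM per kb against 148 CPM per kb in mature mast cells. Srp9, which forms a dimer with Srp14, had 70.3 CPM and 64.4 CPM (0.38). The pair thus had opposite signs. Srp54a was the 1 gene of the 58 below 5 CPM, with 1 read in mature mast cells and 4 in BMCPs. Its near-identical copy Srp54c had 633 reads in mature mast cells, and how reads shared by the copies were counted is not given in the sources used here.

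Of 8 genes for export from the ER, with a median of 0.60, 5 were at least 1.5-fold higher in mature mast cells, against 23.2% of all genes. Sar1b and Lman1 were among the 5 and came below 1.5-fold without BMCP cells 46 and 80, at 0.56 and 0.58. Sar1a, the GTPase that starts COPII coat assembly, had cells from 0 over a median of 210 CPM to 1394 CPM in mature mast cells and from 0 over a median of 1.02 CPM to 1487 CPM in BMCPs. The pooled levels were 275 CPM and 192 CPM, a relative log2 of 0.77. Its copy Sar1b had 72.8 CPM and 56.9 CPM (0.60). The coat protein Sec23b stood at 0.69 (0.48 without mature cell 66), and its partner Sec24d at -0.07. Tmed2, a cargo receptor of the p24 family, was read in most cells: it had 47.7 CPM and 32.8 CPM, cell medians of 37.1 CPM and 25.7 CPM, and a relative log2 of 0.78. Tmed10, which forms complexes with Tmed2, had 98.6 CPM and 129 CPM (-0.13). Lman1 and Mcfd2 together form a cargo receptor for glycoproteins, and stood at 0.60 and 0.55. Lman1 was at 0.33 without mature cell 93.

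The retrieval receptors Kdelr1 and Kdelr2 return escaped ER proteins that end in the KDEL signal. Kdelr1 had 87.4 CPM and 86.9 CPM (0.26), and Kdelr2 had 150 CPM and 133 CPM (0.42) with 82.1 CPM per kb and 72.9 CPM per kb. BMCP cell 80, one of the wells with B cell genes, had the highest Kdelr2 level of any BMCP, 2068 CPM.

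**Figure D2:**
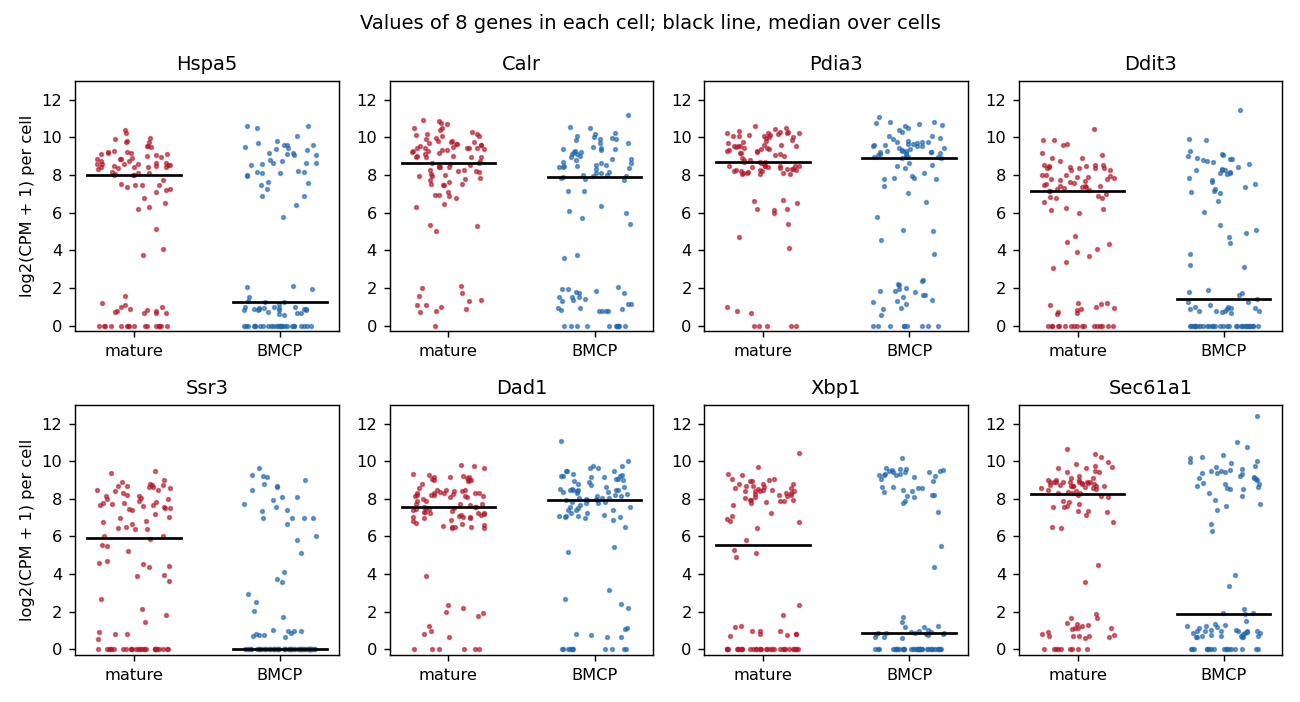
Level per cell of 8 genes in 94 mature mast cells and 93 BMCPs, with a black line at the median over cells. The vertical axis is log2(CPM + 1), cells without a read sit at 0, and the groups overlap in all 8 panels.

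The share of cells with a read differed more than the pooled levels. Every cell was thinned to 100000 reads, where 1 read is 10 CPM, and cells with at least 1 read were counted. More mature mast cells than BMCPs had a read for 55 of the 57 genes, against 68.7% of all genes, and for 37 genes the difference was at least 10 percentage points, against 21.4% of all genes. No gene went as far in the other direction (2.26% of all genes did), and the 2 exceptions to the direction were Dnajc3 with 24 mature mast cells and 31 BMCPs and Sel1l with 32 and 34. The median difference was 14.6 percentage points over the 57 genes and 3.18 over all genes. Among genes read in 20 to 80 percent of BMCPs it was at least 10 points for 36 of 45 genes here and for 35.7% of all 3987 genes. It was 42 genes in the lower and 29 in the higher block of cell numbers, against 30.8% and 20.6% of all genes.

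Srp9 gave the widest difference, with a read in 69 of 94 mature mast cells (73.4%) and 36 of 93 BMCPs (38.7%). Ssr3 followed with 59 and 28 cells, then Sar1a with 61 and 36, P4hb with 74 and 49 and Calr with 84 and 61. A level of at least 100 CPM was reached for Srp9 by 20 mature mast cells and 21 BMCPs. The Srp9 difference thus lay in cells below that level. Ssr3 reached it in 41 and 20 cells, Sar1a in 56 and 27, P4hb in 69 and 45 and Calr in 76 and 52. With at least 5 reads required, 34 genes differed by at least 10 points (14.7% of all genes), and without thinning 24 did (20.5%). Low reads were also seen for a gene with little expression in one group. Gzmb, the gene of granzyme B, with 4714 CPM in BMCPs and 3.39 CPM in mature mast cells, had a thinned read in 20 of 94 mature mast cells (21.3%) and at least 5 reads in 0, which allows a share of up to 3.85%. Among cells with a read, levels were higher in BMCPs for 43 of 52 genes with at least 10 such cells in both groups, as for 83.3% of all genes. Mature mast cells also had more genes of any kind with a read, and the 58 genes were 1.10% of the genes detected in the median mature mast cell and 0.981% in the median BMCP. The part of reads per ERCC read and of genes detected in the difference was not tested.

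**Figure D3:**
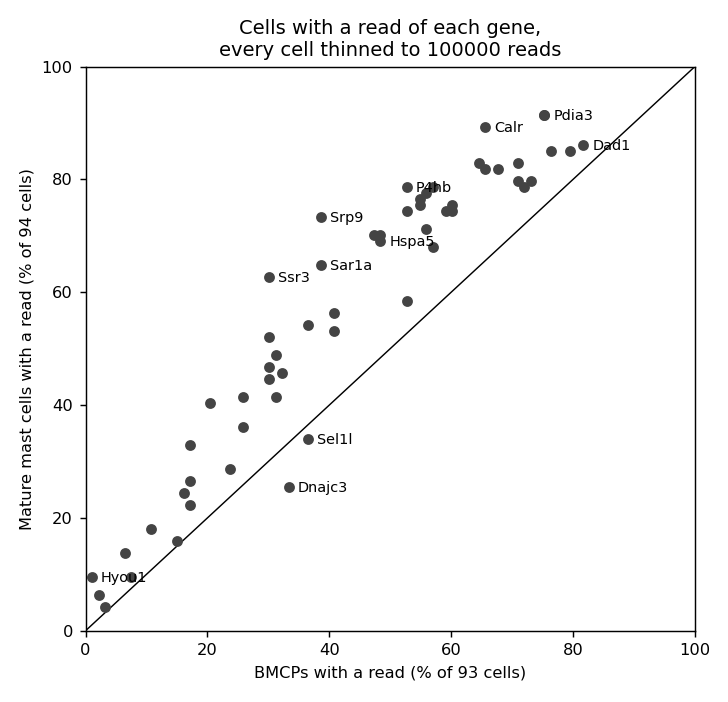
Percent of cells with a read after thinning to 100000 reads, BMCPs on the horizontal axis and mature mast cells on the vertical axis, 1 point per gene. The line marks equal shares, and 55 of the 57 points lie above it.

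In BMCPs the share of the list rose with the share of reads in granule genes. The share of the 58 genes among reads outside the granule list was set against the share of reads in that list (0.113% to 33.8% in BMCPs, 14.3% to 36.9% in mature mast cells). Spearman's rho over cells was 0.60 in 93 BMCPs (Pearson's r 0.55, and 0.54 without the 2 cells farthest from the median), and 0.037 in 94 mature mast cells. With the plain share of all gene reads, which falls as granule reads rise, rho was 0.30 in BMCPs and -0.14 in mature mast cells (r 0.25 and -0.22). Outside the granule list it was 0.58 without BMCP cells 46 and 80, and 0.63 and 0.53 in the lower and higher block of cell numbers. Sums of other genes were not set against the granule share, so these values for the summed list have no background beside them. Of 35 genes read in at least 50% of the cells of both groups, 31 had a rho above 0 in BMCPs, with a median of 0.19 against 0.044 over 2133 genes, of which 62.6% were above 0. In mature mast cells 20 of 35 were above 0, with a median of 0.020, against 45.6% of all genes and a median of -0.013. Calr had the highest rho at 0.50, followed by Pdia3, Hspa5, P4hb and Ddost between 0.33 and 0.35. Sel1l, Srp14, Rpn1 and Spcs2 were below 0. These values describe cells of 1 pooled sample that share preparation and depth. In BMCPs the granule share had a rho of 0.11 with genes detected and 0.33 with reads per ERCC read, and their part in it was not tested. The granule share covers a narrower range in mature mast cells, and the difference between the groups was not tested.

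**Figure D4:**
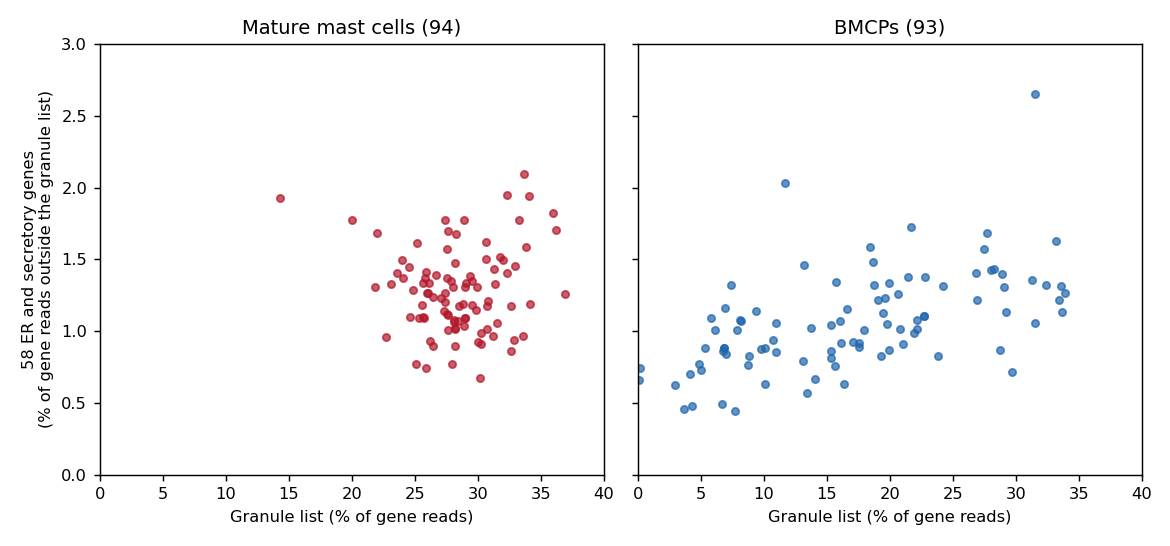
Share of the 58 genes among reads outside the granule list (percent, vertical axis) against the granule list's share of reads (percent, horizontal axis) for each BMCP and mature mast cell. BMCPs spread along both axes with a rho of 0.60, and mature mast cells gather at high granule share with a rho of 0.037.

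Within a group the genes were only weakly tied to each other. Over 595 pairs of those 35 genes the median rho was 0.054 in mature mast cells and 0.056 in BMCPs, against 0.0091 and 0.022 over pairs of 2143 genes. The highest pairs were Sec61b with Sec11c at 0.40 in BMCPs and P4hb with Spcs3 at 0.37 in mature mast cells. These cells share preparation and depth, and in sparse counts such weak values are a description.

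A few wells carried high levels of several genes. BMCP cell 7 had the highest share of the 58 genes, 1.82% of its reads, and BMCP cell 77 followed with 1.79%. BMCP cell 77 held the most reads of 7 genes, among them Hsp90b1, Atf4, Atf6 and Ddit3, with 2847 CPM of Ddit3. In mature mast cells, cell 9 had the highest share, 1.65%, and the lowest granule share of its group, 14.3%. Mature cell 9 had the group's highest Herpud1 level per cell at 1625 CPM and 919 CPM of Ddit3, while Sdf2l1 and Hyou1 had 0 reads in it. BMCP cell 46 had the highest Herpud1 level of the BMCPs, 2079 CPM, with B cell genes in the same well.

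From 85 other genes, of the same route or among 18 targets of Atf4 and CHOP, 78 reached 5 CPM. Their median relative log2 was 0.17. At least 1.5-fold, 12 (15.4%) were higher in mature mast cells and 8 (10.3%) in BMCPs. Both shares were below those over all genes, 23.2% and 23.8%. The targets of Atf4 and CHOP, described under other observations, held 4 of the 8 genes higher in BMCPs. Folding enzymes and lectins had a median of 0.36 over 15 genes, and Calu, a calcium-binding protein of the lumen, stood at 1.04 with 210 CPM and 122 CPM. Uggt1, which marks unfolded glycoproteins for another round of folding, stood at 1.38 with 29.3 CPM and 12.8 CPM. Mogs, the glucosidase that trims the first sugar, stood at 2.94, and mature cell 65 held 81.7% of its mature reads. Targeting and N-glycosylation genes had a median of 0.33 over 16 genes. Tram1, a helper of the channel, had 221 CPM and 115 CPM (1.19), and Sec61a2, the second channel gene, had 19.01 CPM and 4.94 CPM (2.00). Sec61a2 passed 5 CPM in mature mast cells alone and so had to differ to be included. The COPII and COPI coat genes had a median of 0.12 over 20 genes, none of them 2-fold from the all-gene median. Further ER-associated degradation genes had a median of 0.14 over 14 genes, and Ube2j1, a ubiquitin-conjugating enzyme, stood at -1.19 but at 1.19 without BMCP cell 51.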

How the data were processed

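Single cells were sorted into 2 plates of 96 wells, and poly(A) RNA was amplified with 23 PCR cycles and sequenced as 50 bp single-end reads, per the labels' protocols. The authors deposited raw read counts per gene and cell, not normalized. GSNAP, HTSeq 0.5.3p3 and the mm10 build are named in the submitters' processing notes. The annotation release, strand setting and filters are not given in the sources used here, so reads of overlapping genes could not be told apart (16.3% of Spcs1 and 15.7% of Hsp90b1 exon bases overlap another gene). ERCC and summary rows were left out of totals. Reads without a feature were 12.5% and 16.2% of the table's reads in mature mast cells and BMCPs, and ambiguous reads 2.97% and 3.24%.

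Symbols came from GENCODE M21 (98.2% of 46078 identifiers matched). Cells with at least 100000 gene reads were kept. Each well was sorted to hold 1 cell, and doublets were not called. Counts were summed per group, scaled to CPM, and compared as log2 ratios with a pseudocount of 1 CPM, centred on the median of genes of at least 5 CPM. With 1 pooled sample per group no test was run. TMM factors used edgeR 4.0.16, and other steps Python 3.11.15, numpy 2.4.6, pandas 2.3.3 and scipy 1.17.1. The ratio script was tested on simulated data.

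The members and lists were chosen with earlier results of these data known. Genes were named if at least 1.5-fold from the all-gene median, among the 10 highest in CPM per kb, or in the group of stress sensors and transcription factors, and, in other lists, if at least 2-fold. Other genes named were chosen for their role or after their values were seen. Alternatives were other scalings, aggregations, pseudocounts, filters, blocks of cell numbers and cells left out. Promoter letters are from RefSeq, GRCm38.p6.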

Additional observations from a re-analysis of the deposited data

How the results depend on the processing

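No paired analysis was possible because no result comes from a test, each group is 1 pooled sample, and cell numbers are only names. Values moved by less than 0.05 (log2), or counts within 1.5 times, were taken as unmoved. The median relative log2, 0.32 as reported, was 0.51 with the median of per-cell CPM and 0.082 with no filter. Each cell left out in turn gave 0.29 to 0.40, the highest without BMCP cell 53. The summed share, 0.32, was 0.83 with the median of per-cell CPM. The 18 genes at least 1.5-fold higher in mature mast cells became 11 with a pseudocount of 5 CPM and 7 with no filter, and 14 to 20 with 1 cell left out. The 1 gene higher in BMCPs, Ern1, became 0 with TMM scaling, ERCC scaling with or without BMCP cell 55, the median of per-cell CPM, a pseudocount of 5 CPM, a filter of 20 CPM, cells of at least 500000 reads, or without each gene's top cell. Ern1's own value was -0.95 with TMM, -1.12 and -1.08 with ERCC totals, -0.86 with the filter of 20 CPM and -0.74 with cells of at least 500000 reads, where it was below the CPM filter, and -0.37 with a pseudocount of 5 CPM. The count became 2 in the first block of cell numbers and 0 to 1 with 1 cell left out. The 4 genes at 2-fold became 21 with the median of per-cell CPM, 2 with a filter of 20 CPM, and 10 and 7 in the first and second block. The 0 genes at 2-fold in BMCPs became 1 with a pseudocount of 0.1 CPM, no filter or the second block, and 0 to 1 with 1 cell left out. Ern1 turned to 0.32 without each group's top cell, 0.75 in the first block and 0.84 without BMCP cell 54, and was -1.29 without mature cell 2. The 37 genes in more mature mast cells became 24 without thinning. The cause of these moves was not tested. Blocks of cell numbers, ERCC totals without BMCP cell 55, and counts without thinning or with at least 5 reads were chosen after seeing the data. Centring removes most of what scaling changes, and all 19 genes past 1.5-fold kept their direction with TMM and ERCC scaling. With the median of per-cell CPM, 11 of the 19 genes past 1.5-fold kept their direction, and the others were at 0 because both medians were 0. Few wells held genes such as Ern1, Eif2ak3 and Hyou1, and the part of depth in this was not tested.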

Other observations

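The targets of Atf4 and CHOP belong to the arm of the stress response that raises amino acid synthesis and transport. Of 18 listed genes, 13 reached 5 CPM, with a median relative log2 of -0.48, 1 (7.69%) at least 1.5-fold higher in mature mast cells and 4 (30.8%) in BMCPs, against 23.2% and 23.8% of all genes. Their summed reads gave a relative log2 of 0.038, unlike the median. Single wells led these values, and Chac1, Vldlr, Phgdh and Gadd45a passed 5 CPM only through the group where they were higher. All 645 Chac1 reads of mature mast cells were in mature cell 9 (relative log2 of 2.92 from 5.43 CPM). Vldlr and Phgdh stood at -1.95 and -1.98, with 99.5% and 48.8% of the BMCP reads in BMCP cell 77.

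The same wells stood highest over the whole list. Atf4 and CHOP targets took 1.00% of the reads of BMCP cell 77 against a median of 0.0700% in BMCPs, and 0.838% of the reads of mature cell 9 against a median of 0.0696% in mature mast cells. Trib3, a pseudokinase gene induced by CHOP, had 2641 CPM in BMCP cell 77, which held 99.8% of the BMCP reads, and 2006 CPM in mature cell 9, which held 58.4% of the mature reads. Asns, which makes asparagine, had 1047 CPM and 542 CPM in these wells, and Slc3a2, a subunit of amino acid transporters, had 3311 CPM and 2751 CPM, each the highest of its group. Other targets had no reads there: Ppp1r15a, Shmt2 and Gadd45a among those at 0 in BMCP cell 77, and Psat1 and Gadd45a among those at 0 in mature cell 9. These wells were also high for the ER list, ranked 2 of 93 and 1 of 94 by its share of all gene reads. That share falls as granule reads rise, and mature cell 9 had the lowest granule share of its group, 14.3%. The ER list itself holds Atf4 and Ddit3. Both wells were picked after their values were seen.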
